A study of Mus musculus with 6 samples.

Results

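The CXC chemokines are small secreted proteins that guide leukocytes, and 7 of them, Cxcl1, Cxcl2, Cxcl3, Cxcl9, Cxcl10, Cxcl11 and Cxcl16, were followed in single macrophages. The members were taken by gene symbol, and all 7 were among the 18429 genes of the count matrix. Macrophages were grown from bone marrow of mice with intact Rad21 (WT) or with Rad21 alleles that Cre deletes (Rad21-/-), on a mixed strain background. The mice were of both sexes, and their age was given only as a range. Cells of both genotypes carried creERT2 on both Rosa26 alleles and received 200 nM 4-hydroxy-tamoxifen at 96 h of culture, so that the agent and the Cre fusion protein were shared by both genotypes. Deletion was induced in culture and may not have reached every cell. The experiments were done on day 7. In each genotype, cells were left untreated or were given 10 ng/ml lipopolysaccharide (LPS), a bacterial cell wall component, for 2 h or 8 h. Single cells were sorted into wells and sequenced by MARS-seq, which counts transcripts by unique molecular identifiers (UMIs) near their 3′ end. Each of the 6 groups was 1 sample. A difference between genotypes at a time point, or between times in a genotype, therefore had no replicate check, and no test was run, nor a fit of genotype and time as separate terms over the 6 samples. Cells of a sample were not treated as replicates, and every interval given below is a 95% interval of counting error only. Wells were not all of equal depth, and molecules of 1 cell are not independent of each other, so these intervals are too narrow as a measure of differences between cultures.

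CXC chemokines fall into families by the receptor they bind. Cxcl1, Cxcl2 and Cxcl3 bind CXCR2 and draw neutrophils, and their genes are classical NF-kappaB targets that respond within hours of Toll-like receptor 4 ligation. Cxcl9, Cxcl10 and Cxcl11 bind CXCR3 and draw activated T cells and NK cells, and their genes respond to interferons. In macrophages, Toll-like receptor 4 activates IRF3 together with NF-kappaB, and interferon-beta secreted by some cells then acts on their neighbours. Cxcl16 stands apart, since it is made as a transmembrane protein that binds CXCR6 and is released from the surface by the proteases ADAM10 and ADAM17. RAD21 is a subunit of cohesin, the ring complex that shapes contacts between enhancers and promoters, and the comparison of genotypes asks how inducible genes behave without it.

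WT samples held 239 untreated cells and 257 cells at 8 h, Rad21-/- samples held 270 and 224 cells, and the 372 cells at 2 h were evenly divided between the genotypes. The total per sample lay between 1417409 and 2195921 UMIs, and the median per cell between 5577 and 7055.5 UMIs. Sequencing was done in 24 library pools, none of which mixed time points, and both genotypes were present in 23. No well was shared between samples. Rad21 transcripts, the check of the labels, were found in 18.7% to 26.9% of WT cells and in 2.96% to 6.45% of Rad21-/- cells. In all, 17 wells had more than 25000 UMIs. Of these, 5 were in the WT 2 h sample and held 45.5% of all its UMIs. To keep such wells from deciding a value, a level is given here as the mean over cells of UMIs scaled to a fixed total per cell (counts per 1e6 UMIs, CPM). All 8 macrophage markers were detected, with a summed level of 7745 to 10365 CPM in WT and 6164 to 6855 CPM in Rad21-/- samples, so that it moved with genotype. Of 5 B cell markers 2 could be read, Ms4a1 and Ighm, and their summed level was 23.9 to 49.01 CPM in WT and 170 to 181 CPM in Rad21-/- samples, while the defining markers Cd79a and Cd79b were at 0 or not among the genes listed. The neutrophil list was read by 2 of 8 markers at 8.75 to 58.1 CPM, highest at 8 h in both genotypes. Markers of T and NK cells (2 of 6), dendritic cells (2 of 5), fibroblasts (3 of 5) and mast cells (1 of 4) summed to at most 32.4 CPM in any sample. The part of other cell types in the differences described below was not tested.

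Both families lie on chromosome 5, in separate clusters. By the GRCm38 gene table, Cxcl3 stands at chr5:90786101-90788093, Cxcl1 at chr5:90891245-90893121 and Cxcl2 at chr5:90903899-90905938, all on the plus strand and within 119.8 kb. Cxcl9 at chr5:92321331-92328079, Cxcl10 at chr5:92346638-92348889 and Cxcl11 at chr5:92359544-92363296 span 41.97 kb, and 1415 kb separate them from Cxcl2. The table lists Cxcl11 as a transcribed pseudogene of the reference strain, C57BL/6, so that its UMIs count a transcript and say nothing about a protein. Cxcl16 lies on chromosome 11, at chr11:70454389-70459984.

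The 250 bases before the start of 5 of the members are shown for the motifs they hold there. Sequences are from RefSeq on GRCm38.p6 and read 5′ to 3′ on the gene's own strand, with matches in capitals. Cxcl11 and Cxcl16 are named without a sequence.
Cxcl1 (chr5:90890995-90891244, plus strand): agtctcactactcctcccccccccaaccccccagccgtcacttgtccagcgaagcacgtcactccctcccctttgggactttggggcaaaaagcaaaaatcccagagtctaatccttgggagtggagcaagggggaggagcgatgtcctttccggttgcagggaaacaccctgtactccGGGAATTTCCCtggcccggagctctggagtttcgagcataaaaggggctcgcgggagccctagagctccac
Cxcl2 (chr5:90903649-90903898, plus strand): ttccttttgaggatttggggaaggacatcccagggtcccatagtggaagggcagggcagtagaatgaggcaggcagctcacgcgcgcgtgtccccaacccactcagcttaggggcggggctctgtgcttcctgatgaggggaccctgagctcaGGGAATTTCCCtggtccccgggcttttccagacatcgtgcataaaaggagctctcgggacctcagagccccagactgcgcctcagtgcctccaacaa
Cxcl3 (chr5:90785851-90786100, plus strand): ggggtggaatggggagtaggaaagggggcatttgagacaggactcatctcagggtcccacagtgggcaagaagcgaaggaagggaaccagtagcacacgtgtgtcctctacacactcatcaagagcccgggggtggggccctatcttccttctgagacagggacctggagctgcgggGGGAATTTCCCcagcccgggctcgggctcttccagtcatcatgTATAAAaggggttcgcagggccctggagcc
Cxcl9 (chr5:92328080-92328329, minus strand): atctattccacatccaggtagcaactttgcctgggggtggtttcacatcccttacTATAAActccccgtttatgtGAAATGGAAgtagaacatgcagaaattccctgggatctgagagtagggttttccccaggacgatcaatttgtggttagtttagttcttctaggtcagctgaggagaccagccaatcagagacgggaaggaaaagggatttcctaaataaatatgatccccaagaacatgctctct
Cxcl10 (chr5:92348890-92349139, minus strand): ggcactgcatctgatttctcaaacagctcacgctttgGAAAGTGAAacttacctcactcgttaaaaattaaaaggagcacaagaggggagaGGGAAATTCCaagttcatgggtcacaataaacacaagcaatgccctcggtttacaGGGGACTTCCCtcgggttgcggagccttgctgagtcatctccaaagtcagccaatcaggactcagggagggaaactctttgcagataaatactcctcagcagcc

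On both strands, 4 motifs were searched: the NF-kappaB consensus, the core of the interferon-stimulated response element (GAAANNGAA), a STAT element (TTCNNNGAA) and TATAAA. Cxcl1, Cxcl2 and Cxcl3 share the same run of letters, GGGAATTTCCC, which matches the NF-kappaB consensus on both strands and starts 71, 97 and 73 bases before the start. None of these 3 windows holds GAAANNGAA. Cxcl10 holds both kinds, with NF-kappaB matches that start 159, 104 and 103 bases before the start and overlap in the last pair, and with GAAANNGAA at 213 bases. Cxcl9 holds GAAANNGAA at 175 bases and no NF-kappaB match in this window. TTCNNNGAA was in none of the 5 windows, and TATAAA stood 30 bases before the start of Cxcl3 and 195 before that of Cxcl9. Of all 32851 windows of this length, 7.25% hold the NF-kappaB consensus, 7.13% GAAANNGAA, 7.02% TTCNNNGAA and 12.4% TATAAA. A match describes letters only, and factor binding was not measured.

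Before stimulation, each member was undetected in most cells, and Cxcl16 was the one found most often. In untreated WT cells, Cxcl16 was the highest, at 75.9 CPM with a UMI in 82 of 239 cells (34.3%, exact Clopper-Pearson interval 28.3% to 40.7%). Cxcl10 followed at 49.4 CPM in 21 cells, and its counting interval overlapped that of Cxcl16. Cxcl2 stood at 11.5 CPM in 7 cells and Cxcl3 at 4.31 CPM in 3 cells. Cxcl9 had 2 UMIs and Cxcl11 had 1 UMI in the whole sample. Cxcl1 had none in 239 WT cells, which allows a share of up to 1.26%, and none in 270 Rad21-/- cells, which allows up to 1.11%. No cell type that should lack these genes was sorted, so the background from free RNA could not be measured apart from the untreated cells. A 3′ method gives 1 UMI per transcript whatever its length, so levels of different genes were set side by side without dividing by length.

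At 2 h of LPS, Cxcl1 and Cxcl2 were found in nearly every WT cell. Cxcl2 reached 4860.0 CPM and was detected in every cell, with a median of 29 UMIs per cell. Relative to untreated cells this was 421-fold higher (263 to 723). Cxcl1 reached 2276 CPM and was found in all cells but 1, at least 939.8-fold above the level that 3 UMIs would give in the untreated sample. Cxcl3, the least abundant of the trio, reached 255 CPM in 125 cells (67.2%, 59.95% to 73.9%), which was 59.0-fold higher (24.99 to 183). All untreated Cxcl3 came from 1 pool of 43 WT cells, at 23.97 CPM there and 0 CPM in the other pools, so that without it the fold has no measured base. The first family therefore went from 15.9 to 7391 CPM when summed, a log2 ratio of 8.86 (8.28 to 9.52), and 9.58 without 1 untreated library pool of 43 WT cells.

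The second family was led by Cxcl10 alone at 2 h. Cxcl10 reached 2592 CPM in 182 WT cells (97.8%), 52.5-fold above untreated cells (39.9 to 70.5). The log2 ratio of Cxcl10, 5.71, was 6.78 without 1 untreated pool of 46 WT cells. In the untreated sample, 1 WT cell held 27 of the 57 Cxcl10 UMIs. Cxcl11 had 11 UMIs in 5 cells, 54.5% of them in wells of more than 25000 UMIs, and its log2 ratio of 2.83 had an interval that included 0 (-0.33 to 8.39) and was 1.29 without 1 pool of 41 WT cells. Cxcl9 was not detected in any WT cell, which allows a share of up to 1.61%. Cxcl16 was 122.1 CPM, 1.61-fold above untreated (1.23 to 2.12), with a UMI in 97 cells (52.2%). Of the 7 members, 5 were at least 2-fold higher at 2 h, namely Cxcl1, Cxcl2, Cxcl3, Cxcl10 and Cxcl11, beside 5.4% of the 14988 genes with at least 50 UMIs. No member was at least 2-fold lower, beside 6.31% of genes.

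**Figure D1:**
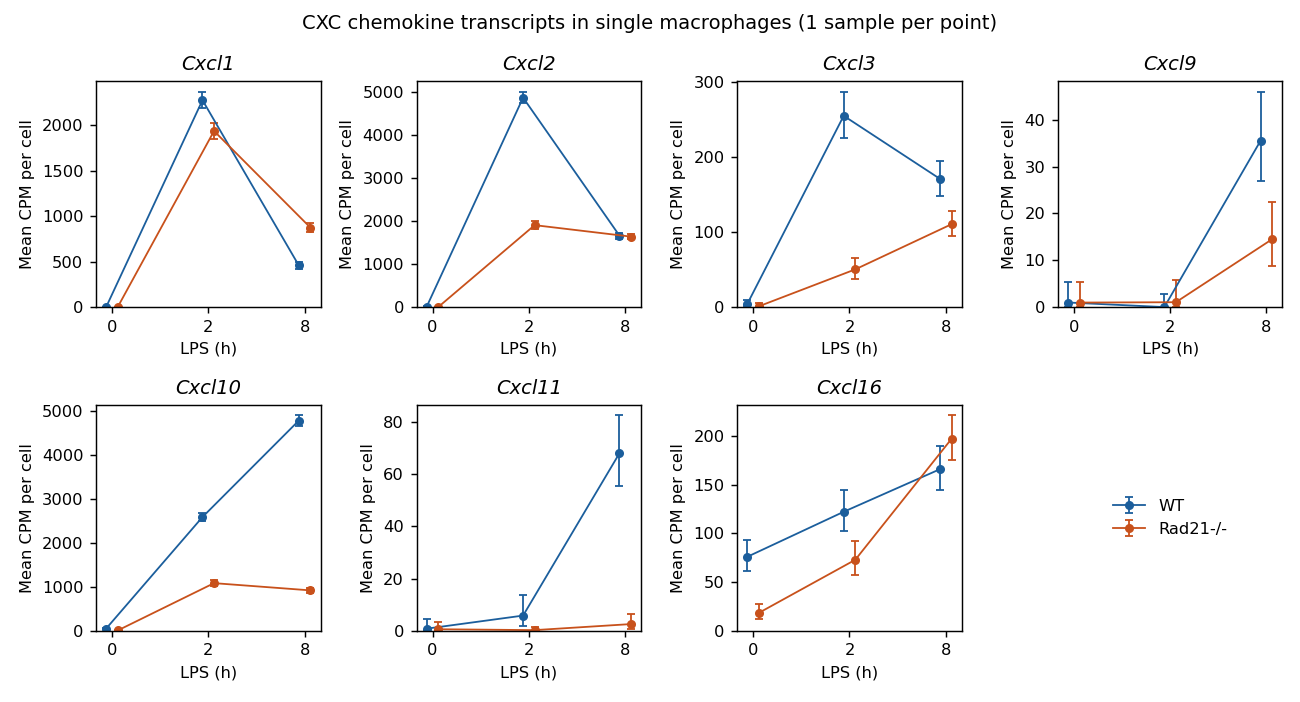
Mean CPM per cell (vertical axis, linear, scaled for each gene) of the 7 members against hours of LPS (horizontal axis, evenly spaced) in WT (blue) and Rad21-/- (orange) samples; each point is 1 sample and bars are 95% counting intervals. In WT cells Cxcl1, Cxcl2 and Cxcl3 were highest at 2 h, while Cxcl9, Cxcl10, Cxcl11 and Cxcl16 were highest at 8 h; in Rad21-/- cells Cxcl10 was 1086 CPM at 2 h and 921 CPM at 8 h, an order that turns without scaling to CPM.

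Between 2 h and 8 h the families went opposite ways in WT cells. Cxcl1 was 458 CPM at 8 h, 4.97-fold lower than at 2 h (4.55 to 5.44), and its share of cells was 73.9%. Cxcl2 was 1658 CPM, 2.93-fold lower (2.79 to 3.08), but still detected in 246 of 257 cells. Cxcl3 was 170.5 CPM, 1.49-fold lower (1.24 to 1.79). Cxcl10, in contrast, was 4792 CPM, 1.85-fold higher than at 2 h (1.77 to 1.93). Cxcl11 and Cxcl9, scarce at 2 h, could be read well only at the later time. Cxcl11 was 68.1 CPM at 8 h in 55 cells (21.4%, 16.5% to 26.9%), 11.7-fold above 2 h (4.84 to 36.7), and the log2 ratio of 3.54 was 5.08 without 1 pool of 41 WT cells at 2 h. Cxcl9 was 35.6 CPM in 33 cells (12.8%, 9.01% to 17.6%), at least 12.8-fold above the level of 3 UMIs at 2 h. Cxcl16 was 166 CPM, 1.36-fold higher (1.09 to 1.698), although without scaling to CPM its direction turned, with a log2 ratio of -0.65.

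Summed, Cxcl1 to Cxcl3 had a log2 ratio of -1.69 (-1.75 to -1.63) between 8 h and 2 h in WT cells, and Cxcl9 to Cxcl11 had 0.91 (0.85 to 0.98). The median over all genes tested was -0.23 in this comparison, so the first family lay below it and the second above it. By count, Cxcl9 and Cxcl11 were at least 2-fold higher at 8 h than at 2 h, beside 6.43% of genes, and Cxcl1 and Cxcl2 at least 2-fold lower, beside 14.7%. Against untreated cells all 7 members were at least 2-fold higher at 8 h, beside 6.75% of genes, with Cxcl16 the smallest at 2.18-fold (1.71 to 2.81). No member was at least 2-fold lower in that comparison, beside 19.4% of genes. The order of the levels changed accordingly. At 2 h it was Cxcl2, Cxcl10, Cxcl1, Cxcl3, Cxcl16, Cxcl11 and Cxcl9, and at 8 h Cxcl10, Cxcl2, Cxcl1, Cxcl3, Cxcl16, Cxcl11 and Cxcl9. The intervals of Cxcl11 and Cxcl9 overlapped at 2 h, as did those of Cxcl3 and Cxcl16 at 8 h, and the other neighbours were apart.

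Rad21-/- macrophages also responded to LPS, from a lower start. Untreated, they had 18.4 CPM of Cxcl16 in 29 of 270 cells (10.7%, 7.31% to 15.1%) and 7.03 CPM of Cxcl10 in 4 cells. Cxcl2 had 3 UMIs, Cxcl3 and Cxcl9 had 2 UMIs each, and Cxcl11 had 1 UMI. At 2 h, Cxcl1 was 1937 CPM in 183 cells (98.4%), at least 918-fold above the level of 3 UMIs. Cxcl2 was 1901 CPM in 182 cells, level with Cxcl1 within counting error. Cxcl3 was 50.2 CPM in 45 cells (24.2%, 18.2% to 31.0%). Cxcl10 was 1086 CPM in 170 cells (91.4%), and Cxcl16 was 72.8 CPM in 62 cells. Cxcl9 and Cxcl11 stayed at 2 UMIs and 1 UMI. In these cells, Cxcl1, Cxcl2, Cxcl3, Cxcl10 and Cxcl16 were at least 2-fold higher at 2 h than in untreated cells, beside 5.63% of genes, and no member was as much lower, beside 5.18%.

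At 8 h the sums of the families kept their order in Rad21-/- cells, at 2619 CPM for Cxcl1 to Cxcl3 and 938 CPM for Cxcl9 to Cxcl11, whereas in WT cells they were 2287 and 4896 CPM. Cxcl1 was 874 CPM, 2.22-fold below its level at 2 h (2.06 to 2.38), and Cxcl2 was 1635 CPM, 1.16-fold lower (1.09 to 1.24). Cxcl3 was 110.3 CPM, 2.198-fold above 2 h (1.61 to 3.05), a log2 ratio of 1.14 that was 0.27 without 1 library pool of 44 Rad21-/- cells. Cxcl10 was 921 CPM, 1.18-fold lower than at 2 h (1.09 to 1.28) with all UMIs scaled to CPM, and its log2 ratio turned from -0.24 to 0.01 without scaling. Cxcl9 was 14.5 CPM in 17 cells (7.59%) and Cxcl11 2.58 CPM in 7 cells (3.12%). Cxcl16 was 197 CPM in 157 of 224 cells (70.1%, 63.6% to 76.01%), 2.71-fold above 2 h (2.08 to 3.56). Between 2 h and 8 h, Cxcl3, Cxcl9, Cxcl11 and Cxcl16 were at least 2-fold higher in Rad21-/- cells, beside 6.99% of genes, and Cxcl1 at least 2-fold lower, beside 7.24%. Against untreated cells, all 7 members were at least 2-fold higher at 8 h, beside 7.64% of genes, none was as much lower, beside 8.21%, and the count for Cxcl11 rests on 8 UMIs against 1.

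Set against WT at 2 h, the Rad21-/- sample was lower in both families, but unevenly. Cxcl3 was 5.07-fold lower (3.77 to 6.94), Cxcl2 2.56-fold lower (2.42 to 2.70) and Cxcl10 2.39-fold lower (2.22 to 2.56). Cxcl1 was only 1.17-fold lower (1.11 to 1.25), and its log2 ratio of -0.23 turned to 0.04 with pooled CPM and to 0.23 with median-of-ratios scaling, but was -0.29 and -0.31 under these scalings without wells of more than 25000 UMIs. Cxcl16 was 1.68-fold lower (1.25 to 2.27). Cxcl11 had 1 UMI against 11, a log2 ratio of -4.52 (-10.09 to -1.36) that was -2.59 without 1 pool of 41 WT cells. Within the 4 library pools with 10 or more cells of both genotypes, Cxcl1, Cxcl2, Cxcl3, Cxcl10 and Cxcl16 were each lower in Rad21-/- cells in 4 of 4 pools. Of the members, 4 were at least 2-fold lower, Cxcl2, Cxcl3, Cxcl10 and Cxcl11, beside 7.63% of genes. Cxcl9 counts as at least 2-fold higher, beside 5.02% of genes, on no more than 2 UMIs against 0.

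At 8 h the genotypes differed mainly in the interferon-type family. Cxcl10 was 921 CPM against 4792 CPM in WT, 5.203-fold lower (4.91 to 5.52), and was lower in 6 of 6 pools. The ranges of the pools did not overlap, at 808 to 1199 CPM in Rad21-/- and 4072 to 5084 CPM in WT cells. Cxcl11 was 26.4-fold lower (10.0 to 98.8), with 8 UMIs against 141, and Cxcl9 was 2.45-fold lower (1.45 to 4.30). These 3 genes were the members at least 2-fold lower, beside 5.22% of genes, and no member was at least 2-fold higher, beside 10.6%. The median of all genes was 0.20 on the log2 scale here, and the median of the 7 members was -0.63. In the other family, Cxcl1 was 1.91-fold higher in Rad21-/- cells (1.73 to 2.11) and higher in 6 of 6 pools, although the ranges of the pools overlapped, at 440.5 to 1092 CPM against 264 to 578 CPM. Cxcl2 did not differ beyond counting error, with a log2 ratio of -0.02 (-0.11 to 0.06) and 3 pools on either side. Cxcl3 had a log2 ratio of -0.63 (-0.92 to -0.33), which turned to 0.0048 with pooled CPM and to 0.39 without scaling. With pooled CPM but no such deep wells its value was -0.52, and it was -1.42 without 1 pool of 44 Rad21-/- and 48 WT cells. The sum of Cxcl1 to Cxcl3 had a log2 ratio of 0.20 (0.13 to 0.27), equal to the median of all genes, and turned to -0.06 with median-of-ratios scaling. Cxcl16 had a log2 ratio of 0.25 (-0.01 to 0.51), with 3 pools on either side.

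**Figure D2:**
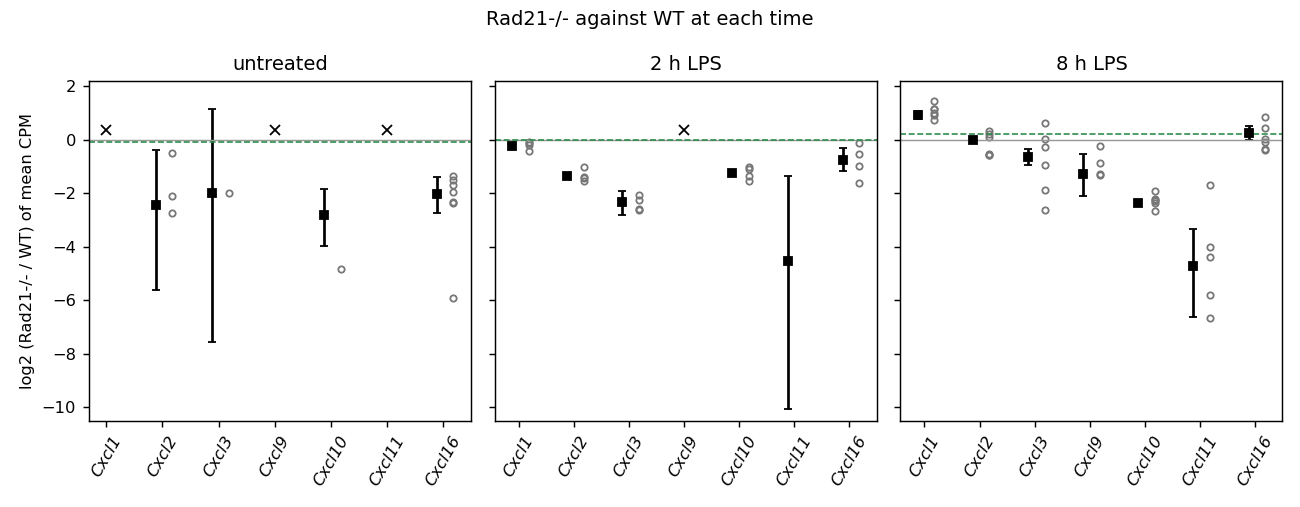
Log2 ratio of mean CPM, Rad21-/- over WT (vertical axis), for each member (horizontal axis) in untreated cells and at 2 h and 8 h of LPS; squares with bars are the samples with their 95% counting interval, open circles are library pools with both values above 0, crosses mark genes at or under 3 UMIs in both samples, and the dashed line is the median of all genes. At 8 h Cxcl1 lies at 0.93, Cxcl2 at -0.02 and Cxcl10 at -2.38; the 2 h value of Cxcl1, -0.23, turns above 0 under pooled and median-of-ratios scaling, and the 8 h value of Cxcl3, -0.63, turns above 0 with pooled CPM and without scaling.

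Untreated Rad21-/- cells were lower for the members that WT cells already expressed. Cxcl16 was 4.12-fold lower (2.65 to 6.63) and lower in 8 of 8 pools, at 0 to 29.8 CPM against 59.0 to 128.9 CPM. Cxcl10 had a log2 ratio of -2.81 (-3.95 to -1.82), but many of its UMIs came from single cells. In WT, 1 cell held 27 of 57 UMIs, and in Rad21-/- 1 cell held 8 of 11. The ratio was -1.69 without the pool of 46 WT cells, in which WT cells held 157 CPM, and -5.57 without a pool of 28 Rad21-/- cells, which held 58.3 CPM. Cxcl2 was 5.47-fold lower on 3 UMIs against 18 (1.30 to 48.8), and 1 WT cell held 7 of the 18. The shares of cells with Cxcl2 had overlapping intervals, at 2.93% (1.19% to 5.94%) in WT and 1.11% (0.23% to 3.21%) in Rad21-/- cells. In this comparison Cxcl2, Cxcl3, Cxcl10 and Cxcl16 were at least 2-fold lower, beside 6.5% of genes, although the interval of Cxcl3 included 0, and no member was as much higher, beside 3.24%.

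Differences between the genotypes could lie in how many cells held a transcript or in how much each of them held. For Cxcl10 at 8 h, the share of cells was 97.7% in WT and 93.3% in Rad21-/-, while the level in positive cells was 4907 and 987 CPM. The shares thinned to 3800 UMIs per cell, which removes differences of depth, were 98.2% and 83.5%. For Cxcl2 at 2 h, shares of 100% and 97.8% went with 4860.0 and 1943 CPM in positive cells. The median WT and Rad21-/- cell held 29 and 7 UMIs of Cxcl2 at 2 h, and 25 and 4 UMIs of Cxcl10 at 8 h. At such counts a share from 1 UMI lies near its ceiling and has little room to differ. For these genes it therefore cannot tell a difference in share from one in level. Counted from 2 UMIs, the share of cells with Cxcl10 at 8 h was 96.9% in WT and 78.6% in Rad21-/- samples. The rarer genes differed in both. Cxcl3 at 2 h was found in 67.2% of WT and 24.2% of Rad21-/- cells, 50.3% and 15.3% when thinned, with 379 and 207 CPM in positive cells. Cxcl11 at 8 h was found in 21.4% and 3.12% of cells, 17.1% and 1.08% when thinned, with 318 and 82.4 CPM in positive cells. For a gene with 1 or 2 UMIs per positive cell, this level is set largely by the cell's depth.

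Cxcl10 and Cxcl11 lie within Art3, an ADP-ribosyltransferase gene on the strand opposite to Cxcl10, and Art3 counts moved with those of Cxcl10. Art3 was 21.002, 407 and 943 CPM in WT and 10.7, 203 and 184 CPM in Rad21-/- samples, untreated, at 2 h and at 8 h. In the stimulated samples its UMIs came to 18.2% to 23.3% of those of Cxcl10. All 222 WT cells with Art3 at 8 h also had Cxcl10, but so did 251 of all 257 cells of that sample. Whether the counting used strand is not given in the sources used here, and without strand reads of such a pair cannot be told apart. With Art3 added to Cxcl10, the log2 ratio between genotypes at 8 h was -2.38, as for Cxcl10 alone, and at 2 h -1.22 against -1.26. In untreated cells the sum gave -1.99 against -2.81 for Cxcl10 alone. There Art3 had 34 UMIs in WT and 21 UMIs in Rad21-/- cells beside 57 and 11 UMIs of Cxcl10, and 5 of 30 WT cells with Art3 held Cxcl10. Cxcl16 overlaps Zmynd15, which had at most 28 UMIs in a sample.

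The families were found together in most stimulated cells, where the second was mostly Cxcl10. Cxcl9 was found in at most 12.8% and Cxcl11 in at most 21.4% of the cells of a stimulated sample. In WT samples, 182 cells at 2 h (97.8%, 94.6% to 99.4%) and 245 of 257 cells at 8 h (95.3%, 91.99% to 97.6%) held at least 1 UMI of Cxcl1 to Cxcl3 and at least 1 of Cxcl9 to Cxcl11. In Rad21-/- samples the shares were 91.9% (87.0% to 95.4%) and 91.5% (87.1% to 94.8%). The product of the shares of each family was 97.8%, 95.4%, 91.9% and 91.7% in the same order. With one family in nearly all cells, the product cannot differ much from the observed share. At equal depth the observed shares were 96.6%, 94.6%, 83.6% and 79.9%. Every stimulated cell held at least 1 UMI of the 6 genes. In WT samples, 4 cells at 2 h and 6 at 8 h had the first family without the second. The second without the first was found in 6 WT cells at 8 h. In Rad21-/- samples, the first stood alone in 15 cells at 2 h and 14 at 8 h, and the second in 5 at 8 h. Among untreated cells, 0 of 239 WT cells, which allows a share of up to 1.26%, and 2 of 270 Rad21-/- cells held both. Within the interferon-type family, Cxcl9 and Cxcl11 were found together in 10 WT cells at 8 h (3.89%, 1.88% to 7.04%). The product of their shares, 2.75%, lay inside this interval, and at equal depth 2.04% stood beside a product of 1.58%. In Rad21-/- cells at 8 h, 0 of 224 cells held both, beside a product of 0.24%.

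The balance of the families within a cell separated the samples further. At 2 h, 22 WT cells (11.8%, 7.56% to 17.4%) and 25 Rad21-/- cells (13.4%, 8.89% to 19.2%) held more UMIs of Cxcl9 to Cxcl11 than of Cxcl1 to Cxcl3. At 8 h this was true of 198 of 257 WT cells (77.04%, 71.4% to 82.04%) but of 48 of 224 Rad21-/- cells (21.4%, 16.2% to 27.4%), and 15 Rad21-/- cells were even. In the median cell the interferon-type family made up 23.0% of the UMIs of the 6 genes at 2 h and 76% at 8 h in WT, and 19.8% and 28.3% in Rad21-/- samples. At 8 h the share was lower in Rad21-/- cells in 6 of 6 pools, at 13.0% to 38.5% against 67.4% to 93.3%. At 2 h it was lower in 1 of 4 pools. Since Cxcl10 made up nearly all of its family, this balance is mostly that of Cxcl10 against Cxcl1 and Cxcl2. With Cxcl1 as the only partner, Cxcl10 was ahead in 94.5% of WT and 58.3% of Rad21-/- cells with either transcript at 8 h.

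**Figure D3:**
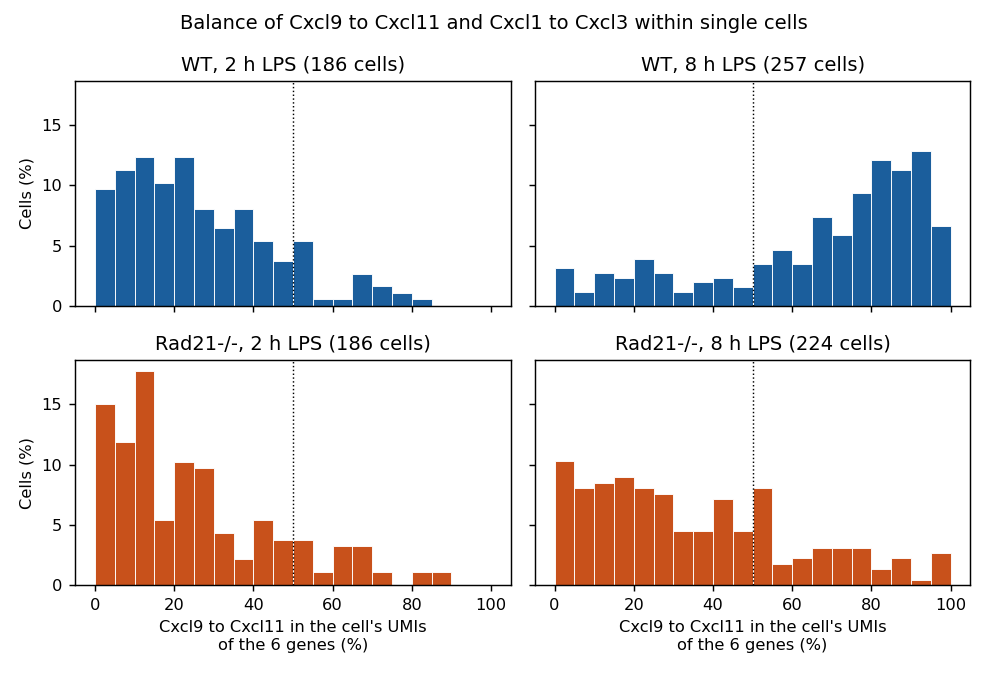
Histograms of single cells by the percentage of Cxcl9 to Cxcl11 among the cell's UMIs of the 6 genes (horizontal axis, %) against the percentage of cells (vertical axis), in WT (blue, top) and Rad21-/- (orange, bottom) samples at 2 h and 8 h; the dotted line marks equal numbers. Only WT cells at 8 h lie mostly to the right of the line, with a median of 76% against 19.8% to 28.3% in the other samples shown.

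Across cells, members of the neutrophil family tended to vary together. The tendency was weaker in WT cells at both times for the pairs with Cxcl1, and at 8 h for Cxcl2 and Cxcl3. The values below are Spearman correlations of CPM over the cells of a sample, which share library, culture and depth, and are given as a description for pairs found in at least 20% of cells. Cxcl2 and Cxcl3 had a rho of 0.47 at 2 h and 0.32 at 8 h in WT, and 0.30 and 0.41 in Rad21-/- samples, and it was above 0 in every pool examined. At equal depth this pair had 0.46 and 0.20 in WT and 0.32 and 0.42 in Rad21-/- samples. Its pools of 8 h gave 0.09 to 0.62 in WT and 0.19 to 0.54 in Rad21-/- cells, so the genotypes overlapped. Cxcl1 and Cxcl2 had 0.32 and 0.25 in WT but 0.63 and 0.55 in Rad21-/- samples. The pools of 2 h gave -0.09 to 0.65 in WT and 0.46 to 0.69 in Rad21-/- cells for this pair, so the genotypes overlapped. At 8 h in WT cells it was 0.17 at equal depth and above 0 in 5 of 6 pools. Cxcl1 and Cxcl3 had 0.19 and 0.17 in WT and 0.35 and 0.38 in Rad21-/- samples. In WT cells at 8 h the latter pair was 0.11 at equal depth and above 0 in 4 of 6 pools. In the interferon-type family only Cxcl10 and Cxcl11 in WT cells at 8 h could be examined, with a rho of 0.28, above 0 in 6 of 6 pools.

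Between the families, the sign depended on the sample. Cxcl2 and Cxcl10 had a rho of 0.05 at 2 h and -0.25 at 8 h in WT cells, and the latter was below 0 in 6 of 6 pools (-0.50 to -0.08) and was -0.23 at equal depth. In Rad21-/- cells the pair had 0.09 at 2 h and 0.19 at 8 h, with 3 of 4 pools above 0 at 8 h. Cxcl2 and Cxcl11 in WT cells at 8 h had -0.18, below 0 in 6 of 6 pools. Cxcl1 and Cxcl10 had 0.02 in WT and 0.17 in Rad21-/- cells at 8 h. Cxcl16 had a rho between -0.09 and 0.11 with every other member examined in each stimulated sample. In sparse counts, correlations of this size are weak.

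**Figure D4:**
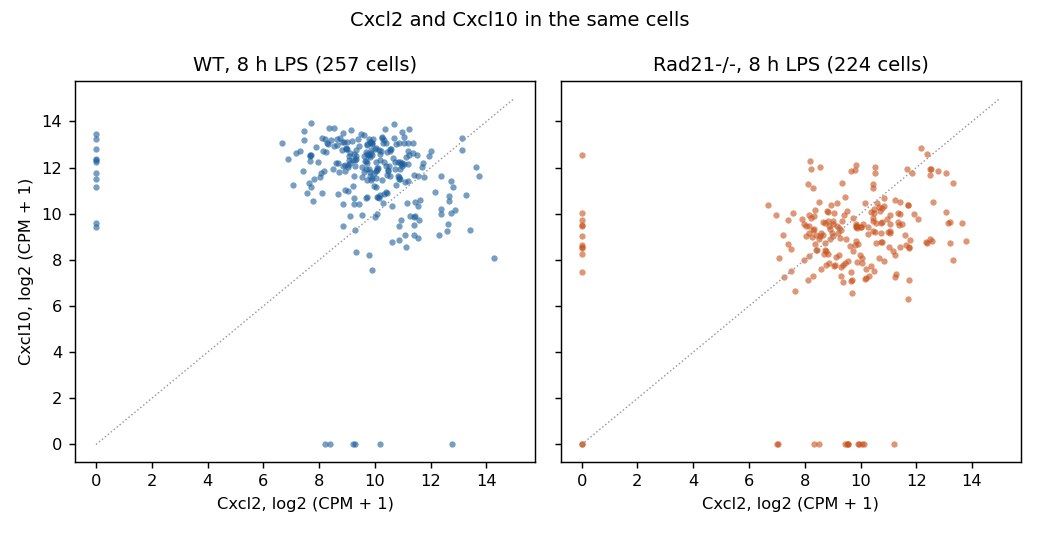
Cxcl2 (horizontal axis) against Cxcl10 (vertical axis), both as log2 of CPM + 1, in single WT and Rad21-/- cells at 8 h of LPS; each point is a cell, points on an axis had no UMI of the other gene, and the dotted line marks equal levels. Most WT cells lie above the line, with Spearman rho -0.25 over 257 cells, and Rad21-/- cells lie around and below it, with rho 0.19 over 224 cells.

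Among other CXC ligands, 3 of 8 listed could be read, Pf4, Cxcl12 and Cxcl17. Pf4 (Cxcl4), a platelet chemokine also made by macrophages, is the neighbour of Cxcl3 at chr5:90772435-90773383. Its level was 224, 211 and 209 CPM in WT and 332, 383 and 301 CPM in Rad21-/- samples, untreated, at 2 h and at 8 h, so it was higher without RAD21 at each time but past 2-fold at none. Cxcl12 and Cxcl17 had at most 18 UMIs in a sample. On these counts, Cxcl12 was at least 2-fold lower in WT cells at 2 h than untreated, beside 6.31% of genes. It was as much higher in WT cells at 8 h than at 2 h, beside 6.43%. At 2 h it was as much higher in Rad21-/- than in WT cells, beside 5.02%. Among receptors and sheddases, 4 of 10 passed 50 UMIs. Cxcr4, the Cxcl12 receptor, was lower by more than 2-fold at 8 h in both genotypes, at 82.8, 89.3 and 5.79 CPM in WT and 96.1, 81.3 and 8.81 CPM in Rad21-/- samples. Against untreated cells, 19.4% of genes in WT and 8.21% in Rad21-/- samples were at least 2-fold lower at 8 h. Adam17 was 75, 133 and 98.2 CPM in WT and 104.9, 147.5 and 173 CPM in Rad21-/- samples, and Adam10 lay between 40.6 and 56.6 CPM in all 6. Cxcr5 counts as at least 2-fold lower in Rad21-/- cells at 8 h, beside 5.22% of genes, on 10 against 19 UMIs. Cxcr3 had at most 6 UMIs in a sample.

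Known regulators of both families were read from a list of 17 genes, 16 of which passed 50 UMIs. In WT cells at 2 h, 6 of the 16 were at least 2-fold higher than in untreated cells, Nfkb1, Nfkbiz, Nfkbia, Irf1, Ifnb1 and Zfp36, beside 5.4% of genes, and Stat2 was as much lower, beside 6.31%. Between the genotypes at 8 h, Irf1, Irf7, Stat2 and Zfp36 were at least 2-fold lower in Rad21-/- cells, beside 5.22% of genes, and Irf3 was as much higher, beside 10.6%, with a median log2 ratio over the list of -0.52. Irf7, which drives interferon genes, was 878 CPM in WT and 345 CPM in Rad21-/- cells. Stat2, part of the factor activated by type I interferon, was 192 and 77.1 CPM. Zfp36, whose protein hastens the decay of AU-rich mRNAs, was 352 and 76.9 CPM. Irf1 was 176 and 86.05 CPM. At 2 h, Irf7, Irf9 and Ifnb1 were the 3 at least 2-fold lower in Rad21-/- cells, beside 7.63% of genes, and none was as much higher, beside 5.02%. In untreated cells, 4 were at least 2-fold lower, beside 6.5% of genes, among them Nfkbiz, Irf7 and Stat2. Irf7 was 488 CPM in WT and 111 CPM in Rad21-/- cells. The count for Nfkbiz rests on 12 UMIs in Rad21-/- against 16 UMIs in WT cells.

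Ifnb1, the interferon-beta gene, was detected at 2 h only, in 39 WT cells (20.97%) and 3 Rad21-/- cells (1.61%). Its UMIs were 75 and 3. The 39 WT cells with Ifnb1 were deeper, with a median of 6743 UMIs against 5892 in the others, and they included all wells of more than 25000 UMIs. They held 2894 CPM of Cxcl10 against 2513 CPM, 2647 CPM of Cxcl1 against 2178 CPM, and 4728 CPM of Cxcl2 against 4895 CPM. Without those deep wells, the order for Cxcl2 turned, at 5060.2 CPM with and 4895 CPM without Ifnb1. Cxcl3 was found in 61.0% and 47.2% of them at equal depth. Cxcl10 was found in 97.3% of the WT cells without a detected Ifnb1 transcript, and a cell without a UMI may still have held the transcript.

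The genes whose levels over the 6 samples were most like those of each member were sought among 4051 genes with at least 500 UMIs, by Pearson's r of log2(mean CPM + 1). With 6 points, high values arise readily, and r ignores the size of the change. For Cxcl2 the closest was Tnf (r = 0.998), a proinflammatory cytokine gene, which ran from 9.68 to 2927 and 747 CPM in WT and from 3.10 to 1200 and 769 CPM in Rad21-/- samples, followed by Sqstm1 and Pde4b. For Cxcl1 they were Dyrk2, Gm15776 and Nlrp3, and for Cxcl3 Adgrv1, Irg1 and Ccl4. For Cxcl10 they were Rhbdf2, Il10 and Tank, with r from 0.991 to 0.994. For Cxcl9 they were Med28, Smap1 and Tma16, for Cxcl11 Sptlc2, Mdfic and Fcgr2b, and for Cxcl16 Ppp2ca, Marcks and Txnrd1. Fcgr2b was 295 CPM in WT and 36.1 CPM in Rad21-/- cells at 8 h, and Marcks was 186.3, 310.1 and 320 CPM in WT and 65.3, 186.3 and 367 CPM in Rad21-/- samples. With a pseudocount of 10 CPM, all 3 genes recurred for Cxcl10, and fewer than 2 for Cxcl3, Cxcl9 and Cxcl11.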

How the data were processed

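Single-cell MARS-seq UMI counts of 6 samples, 1 per group, were analysed. According to the methods, the authors mapped reads with GEMTools to GRCm38 with a Gencode annotation, kept unambiguously mapped reads, merged reads that carried 1 UMI for 1 gene, and dropped wells with many spike-in or few mapped reads; the counts were deposited without normalization. Whether counting used strand is not given in the sources used here. Because wells differ in depth, unscaled sums depend on few cells. Pooled CPM, unscaled UMIs, median-of-ratios scaling, equal weight per pool, a minimum of 2 UMIs, thinning and leaving out deep wells or single pools were tried as alternatives.

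Cells were grouped by the labels. Counts were scaled to CPM within each cell and averaged over cells. Shares have exact Clopper-Pearson 95% intervals, and ratios an exact conditional interval on the UMIs equivalent to the level. A gene at 0 was set to a floor of 3 UMIs per sample, and no fold is given where both samples held at most 3. Shares at equal depth are expectations at 3800 UMIs per cell, leaving out 21 to 47 shallower cells per sample. Counts past 2-fold are over genes with at least 50 UMIs, with 1 UMI added. Library pools with at least 10 cells of each genotype were compared within pool, and correlations within pools of at least 20 cells. A symbol listed on 2 rows was handled once for each row, doublets were not called, and 0 columns were left unused. The 3 genes named beside each member are those with the highest Pearson's r. Some list genes are not reported here. The members and lists were chosen with earlier results of these data known. Intervals were tried on simulated data for the 8 h genotype comparison (9765 genes), drawn as Poisson counts from 1 rate per gene and sample. They held the true value for 96% of genes raised 2-fold, 98% of genes lowered 2-fold and 95.2% of unchanged genes. The intervals assume such counts, so this checks the calculation and cannot show how they hold where cells vary more. Python 3.11.15, numpy 2.4.6, pandas 2.3.3, scipy 1.17.1 and matplotlib 3.10.9 were used.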

Additional observations from a re-analysis of the deposited data

Results flagged for a closer look

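Several log2 ratios of mean CPM had opposite signs in groups under the same contrast, and with 1 sample per group none of these differences was tested. Cxcl1 was -0.23 between Rad21-/- and WT at 2 h and 0.93 at 8 h, where the 2 h value turns above 0 with pooled CPM and with median-of-ratios scaling. Summed, Cxcl1 to Cxcl3 had ratios of -2.32 before LPS, -0.93 at 2 h and 0.20 at 8 h, of which the last turns below 0 with median-of-ratios scaling. The value before LPS rests on 5 UMIs in Rad21-/- against 24 UMIs in WT cells.

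Between 8 h and 2 h, Cxcl3 was -0.58 in WT and 1.14 in Rad21-/- cells, the latter 0.27 without 1 pool of 44 Rad21-/- cells. Cxcl10 was 0.89 in WT and -0.24 in Rad21-/- cells, and Cxcl9 to Cxcl11 were 0.91 and -0.21, where both Rad21-/- values turn above 0 without scaling.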

How the results depend on the processing

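Of the values recomputed with all pools, 494 kept their direction and size, 143 moved and 9 turned. Chosen after seeing the data were pooled CPM and median-of-ratios scaling without deep wells (over 25000 UMIs) and, for the balance, leaving out deep wells or single pools and setting gene against gene. No paired analysis was possible because no group had numbered replicates to pair; genotypes were compared within pools. All ratios below are log2, and causes of the changes were not tested.

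Without scaling, Cxcl16 turned to -0.65 between 8 h and 2 h in WT (0.076 with pooled CPM), Cxcl10 to 0.0088 and Cxcl9 to Cxcl11 to 0.029 between 8 h and 2 h in Rad21-/-, and Cxcl3 to 0.39 between genotypes at 8 h (0.0048 with pooled CPM). Cxcl1 between genotypes at 2 h turned to 0.036 with pooled CPM and 0.23 with median-of-ratios scaling, and Cxcl1 to Cxcl3 at 8 h to -0.060 with median-of-ratios scaling and -0.062 with it and no deep wells. Without scaling, the 2 h response in WT was 1.99 for Cxcl16 and 6.54 for Cxcl9 to Cxcl11. Between genotypes without scaling, Cxcl16 was -1.76 at 2 h and 0.67 at 8 h, Cxcl1 to Cxcl3 -1.20 and 0.58, and Cxcl9 to Cxcl11 -1.51 and -1.99. At 2 h these families were -0.57 and -0.88 with pooled CPM and -0.38 and -0.69 with median-of-ratios scaling, and Cxcl9 to Cxcl11 at 8 h were -2.63 with the latter. Between 8 h and 2 h in WT, Cxcl1 to Cxcl3 were -1.40, -2.13 and -1.002 with pooled CPM, without scaling and with median-of-ratios scaling, and Cxcl9 to Cxcl11 1.24, 0.51 and 1.64. In Rad21-/- cells Cxcl1 to Cxcl3 were -0.65, -0.35 and -0.69, and -0.68 with equal weight per pool.

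Counting a family as found from 2 UMIs gave both in 91.9% and 90.7% of WT cells at 2 h and 8 h, and in 0%, 75.8% and 75% of Rad21-/- cells untreated, at 2 h and at 8 h, and thinning gave 83.6% and 79.9% in the last pair. Among cells with either transcript, Cxcl10 exceeded Cxcl1 in 52.7% and 94.5% of WT and 25.8% and 58.3% of Rad21-/- cells at 2 h and 8 h. It exceeded Cxcl2 in 27.4% and 34.2% of Rad21-/- cells. Against Cxcl1 in untreated cells, the share was 100% in both genotypes. That value was fixed in advance, because Cxcl1 had no UMI there, and rests on 21 WT and 4 Rad21-/- cells with Cxcl10.

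Leaving out each library pool in turn, Cxcl1 to Cxcl3 ranged from -1.03 to -0.90 between genotypes at 2 h, 0.12 to 0.30 at 8 h, 8.55 to 9.58 in the WT 2 h response, -1.73 to -1.63 from 2 h to 8 h in WT and -0.68 to -0.45 in Rad21-/-. Cxcl9 to Cxcl11 ranged from -1.34 to -1.18, -2.44 to -2.32, 5.41 to 6.72, 0.84 to 1.04 and -0.31 to -0.12 in the same order, and Cxcl16 from -1.01 to -0.55, 0.14 to 0.31, 0.62 to 0.75, 0.30 to 0.51 and 1.24 to 1.69. Both families were found in 97.1% to 98.6% and 94.3% to 97.2% of WT and 90.3% to 92.9% and 90% to 97.2% of Rad21-/- cells at 2 h and 8 h, and in 0% and 0.413% to 0.901% untreated. The interferon-type family led in 11.2% to 12.9% and 75% to 79.0% of WT and 12.1% to 15.7% and 19.7% to 23.6% of Rad21-/- cells at 2 h and 8 h, and in 63.6% to 80.8% and 50% to 83.3% of the few untreated cells with either family. Cxcl9 and Cxcl11 had at most 11 UMIs in every sample but those at 8 h, too few for narrow intervals.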
